A study of Mus musculus with 12 samples.

Results

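Maspin, the product of Serpinb5, was followed here in mouse keratinocytes that overexpressed deltaNp63alpha. Serpinb5 was taken as every probe that the platform annotation assigns to that gene alone, which gave 1 of 9558 probes, with a value on 11 of 12 arrays. The cells were primary skin keratinocytes of C57Bl/6NCr mice. One group received an adenovirus that carries deltaNp63alpha, a form of p63 that lacks the N-terminal transactivation domain. The control group received one that carries beta-galactosidase, so both groups carried virus, and deltaNp63alpha was added on top of the p63 that the cells make themselves. Cells stayed in 0.05 mM calcium (low calcium) or were shifted to 0.12 mM calcium for 24 h (high calcium), which starts differentiation per the labels, and RNA was taken 41 h after transduction. Neither the number of mice behind an RNA nor their age is given in the labels. Each spotted cDNA array compared both RNAs of 1 calcium level, one in Cy3 and one in Cy5. Each level had 3 repeats, each run in both dye orientations: on a forward array the deltaNp63alpha RNA carried Cy5, and on a reversed array it carried Cy3. Both arrays of a repeat form a dye-swap pair and count as 1 replicate.

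Maspin belongs to clade B of the serpins, a family of serine protease inhibitors that act by presenting a reactive loop to the protease. Maspin itself is generally held not to inhibit proteases in this way. It is made by epithelial cells, including those of skin and breast, and is known as a tumour suppressor that restrains cell migration and invasion. The p53 family of transcription factors (p53, p63 and p73) is known to act on its promoter, and the title of the series names maspin as a gene that p73 turns on and deltaNp63alpha holds down.

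Maspin lies on chromosome 1 at one end of a run of 12 serpin genes, between Vps4b and the other serpins in the RefSeq gene order. Only 3 of the 12 were named on these arrays: Serpinb5, Serpinb2 and Serpinb8. The promoters of Serpinb5 and Serpinb2, which both fell with deltaNp63alpha, are shown so that the p53 family context can be read. Both come from RefSeq (build GRCm38.p6, plus strand) and cover 250 bases before to 50 bases after the start of the transcript. Capitals mark CATG, the usual core of a p53 family half-site, which reads the same on both strands. Serpinb5 lies at chr1:106860925-106861224 and Serpinb2, by the first of its 2 listed starts, at chr1:107511173-107511472.
Serpinb5: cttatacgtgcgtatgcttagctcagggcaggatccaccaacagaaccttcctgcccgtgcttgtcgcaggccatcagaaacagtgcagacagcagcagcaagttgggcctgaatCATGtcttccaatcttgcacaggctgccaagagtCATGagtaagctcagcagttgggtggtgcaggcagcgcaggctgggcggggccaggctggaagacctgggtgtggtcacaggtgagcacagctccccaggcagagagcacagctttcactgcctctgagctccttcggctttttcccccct
Serpinb2: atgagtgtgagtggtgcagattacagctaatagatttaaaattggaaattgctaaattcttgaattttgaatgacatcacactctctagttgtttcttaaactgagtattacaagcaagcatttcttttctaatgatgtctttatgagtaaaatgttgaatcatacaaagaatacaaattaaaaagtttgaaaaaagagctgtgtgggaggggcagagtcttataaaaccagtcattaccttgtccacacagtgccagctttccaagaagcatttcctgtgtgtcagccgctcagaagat

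The Serpinb5 window held CATG at 2 places, starting 135 and 101 bases before the transcript start, and the Serpinb2 window held none. Among 32851 promoter windows of this length, 61.1% held CATG, so its presence is common. The full p53 half-site consensus was found in neither window, and 8.36% of all windows held it. A loose AP-1-like pattern (TGANTCA, N any base, both strands) matched once in each of the 2 windows, as TGAATCA in both. Of all windows, 7.81% held a match to this loose pattern. In Serpinb5 it overlaps the first CATG. The window of Serpinb8, which was not called at either level, matched the pattern 2 times, each time as TGAGTCA, and held no CATG. A GC box (GGGCGG, both strands) occurred once in Serpinb5 and not in Serpinb2, against 35.7% of all windows. The ETS core (GGAA, both strands) occurred 4 times in Serpinb5, 3 times in Serpinb2 and 4 times in Serpinb8, and 96.0% of windows held it. These matches describe letters in a short window. No binding was measured in this series.

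The deposited values are ratios of the 2 dyes of an array, taken as log2, and they say nothing of how much maspin the cells contained. Which dye is the numerator is not stated. The ratios were read as Cy5 over Cy3, and the sign of reversed arrays was turned, so that a negative value means less Serpinb5 RNA with deltaNp63alpha than with beta-galactosidase. The order is not settled. It was chosen because Cy5 over Cy3 is the common form and because the title of the series has maspin go down, so the sign found for maspin is no independent evidence. Under the opposite order every sign would turn. In the labels deltaNp63alpha always stands in channel 2, whichever dye it carried. Were the values channel 2 over channel 1, no sign would be turned, and the results of that reading are given too. The deposited values of forward and reversed arrays correlated positively in all 6 pairs, at 0.208, 0.713 and 0.60 in low calcium and 0.121, 0.255 and 0.525 in high calcium (Pearson, across rows). A difference between the RNAs would make these correlations negative if the values are Cy5 over Cy3, and positive if they are channel 2 over channel 1. A signal that stays with the dye would make them positive if the values are Cy5 over Cy3, and negative if they are channel 2 over channel 1. An RNA difference read as channel 2 over channel 1 and a dye signal read as Cy5 over Cy3 cannot be told apart here. The overexpressed gene lent this order no support: its single probe, Trp63, was not called higher with deltaNp63alpha at either level. In the well-filled arrays alone it was lower at both levels, at -0.78 in low (1 pair) and -0.55 in high calcium. In high calcium it was called there (limma adjusted p = 0.0288), as 1 of 684 rows called among 8442 tested. With kept signs it was at -0.83 and 0.16, not called.

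In low calcium, the Serpinb5 log2 ratios of repeats 1, 2 and 3 were -0.83, -0.04 and 0.56 on the forward arrays. On the reversed arrays, after turning, they were -1.21, -0.95 and -2.34. All 3 reversed arrays were below 0, whereas the forward arrays spread from clearly negative in repeat 1 to positive in repeat 3. The pair values were -1.02, -0.50 and -0.89, all negative. In high calcium, the forward arrays read -1.06, -0.68 and 1.47 in repeats 1, 2 and 3, and the reversed arrays -0.51 and -1.30 in repeats 1 and 2. The reversed array of repeat 3, which had the fewest measured probes of all (3366), gave no value for Serpinb5. Repeat 3 therefore had no pair, and its lone forward value was the highest Serpinb5 reading of the 11 arrays after turning. The pair values of repeats 1 and 2 were -0.79 and -0.99.

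**Figure D1:**
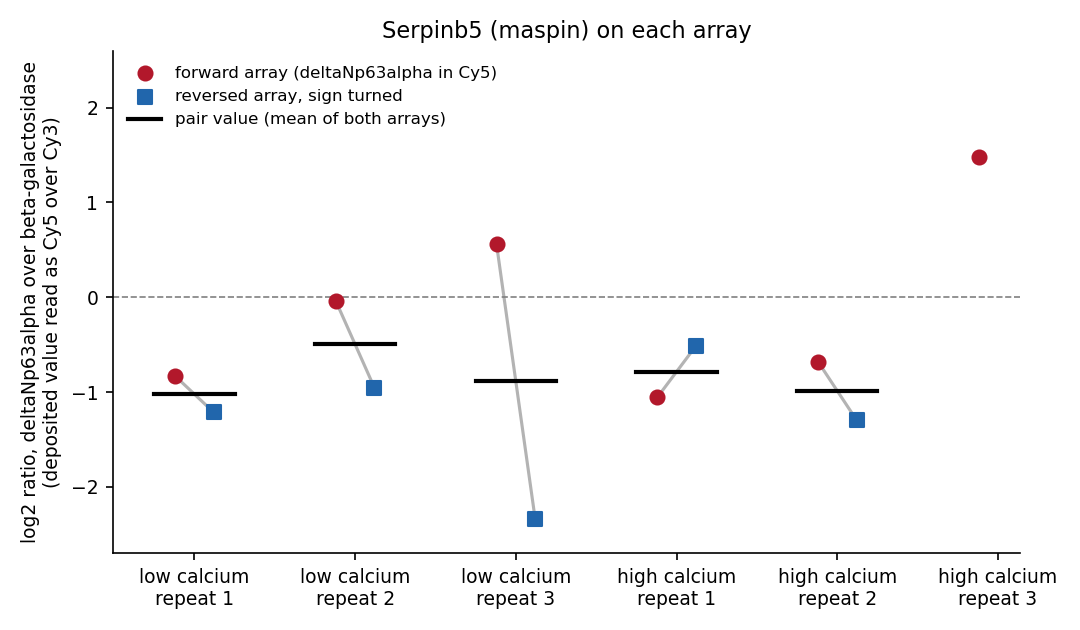
Log2 ratio of Serpinb5 (y axis) on each array by calcium level and repeat (x axis). Red circles are forward arrays, blue squares reversed arrays after turning, grey lines join the arrays of a pair and black bars are pair values. All 5 pair values lie between -1.02 and -0.50, while the forward arrays of low calcium repeat 3 (0.56) and high calcium repeat 3 (1.47) lie above 0.

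Read as Cy5 over Cy3, Serpinb5 RNA was lower with deltaNp63alpha in low calcium by a log2 ratio of -0.80 ± 0.16 (SE, n = 3 pairs), which is 1.74-fold (95% confidence interval 1.38 to 2.20). It passed the limma test by the narrowest margin, with an adjusted p of 0.04998 against the threshold of 0.05. It was 1 of 19 called among the 4646 rows (named genes or unnamed probes) tested, or 0.409%, of which 18 (0.387%) were lower. All of its pair values were below 0, as for 16.3% of the rows tested. Of these rows, 31 had a lower ratio, against 4379 (94.3%) with kept signs. In high calcium the log2 ratio was -0.89 ± 0.19 (SE, n = 2 pairs), or 1.85-fold lower (95% confidence interval 1.39 to 2.46), with a limma adjusted p of 0.0388. Calls in high calcium made up 1.39% of 7263 rows tested (0.84% lower), 27.2% of rows had all pair values below 0, and 72 rows had a lower ratio than Serpinb5, against 3500 (48.2%) with kept signs. The design text of the series calls the arrays technical repeats, and the p-values may measure only technical spread.

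These calls were lost when some single repeats were left out, in fits with fewer pairs and fewer rows tested. The low calcium call was lost without low calcium repeat 1 (-0.69, limma adjusted p = 0.210) and without repeat 3 (-0.76, limma adjusted p = 0.160). The high calcium call was lost without high calcium repeat 1 (-0.99, limma adjusted p = 0.375) or repeat 2 (-0.79, limma adjusted p = 0.759), where 1 pair remained and was taken to vary like the others. When the forward array of high calcium repeat 3 was kept as the value of its repeat, the high calcium ratio was -0.10 (limma adjusted p = 0.968).

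Averaged over both calcium levels, the Serpinb5 log2 ratio was -0.84 ± 0.12 (SE, 3 and 2 pairs), a 1.80-fold difference (95% confidence interval 1.49 to 2.16). Its limma adjusted p was 0.00284, in a comparison that called 106 of 4209 rows (2.52%), 81 of them lower (1.92%). The call held without any 1 low calcium pair (limma adjusted p from 0.00194 to 0.00763) and with a trended and robust variance (limma adjusted p = 0.0428). Without high calcium repeat 1 or 2 the ratio was -0.90 or -0.79. Those fits left 1 high calcium pair and used 1 variance shared by all rows, so they say little of the spread of Serpinb5. The call was lost when arrays were set to the same spread (-1.08, limma adjusted p = 0.0513) and when the incomplete pair was kept (-0.45, limma adjusted p = 0.652). All 5 pairs were negative, as they were for 177 of 2088 rows measured in the same pairs (8.48%). An exact two-sided sign-flip permutation test over the 5 pairs gave p = 0.0625, the smallest it can give. For the 3 low calcium pairs alone the smallest possible exact p is 0.25, and for the 2 high calcium pairs 0.5. Of the 10 arrays in these pairs, 9 read below 0 for Serpinb5, and 52 of 2088 rows (2.49%) had at least that many.

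Within each pair, after turning, Serpinb5 stood near the lower edge of all rows with a pair value. It was lower than all but 84 of 7893 rows in low calcium repeat 1 (1.06%), 233 of 4552 in repeat 2 (5.12%) and 76 of 2894 in repeat 3 (2.63%). In high calcium, 123 of 7185 rows were lower in repeat 1 (1.71%) and 165 of 8214 in repeat 2 (2.01%). This position depends on the turning: with kept signs the share of rows higher than Serpinb5 was 32.5%, 28.4% and 0.795% in low calcium repeats 1 to 3, and 76.6% and 13.2% in high calcium repeats 1 and 2. On the forward array of high calcium repeat 3 96.1% of rows were lower than Serpinb5.

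**Figure D2:**
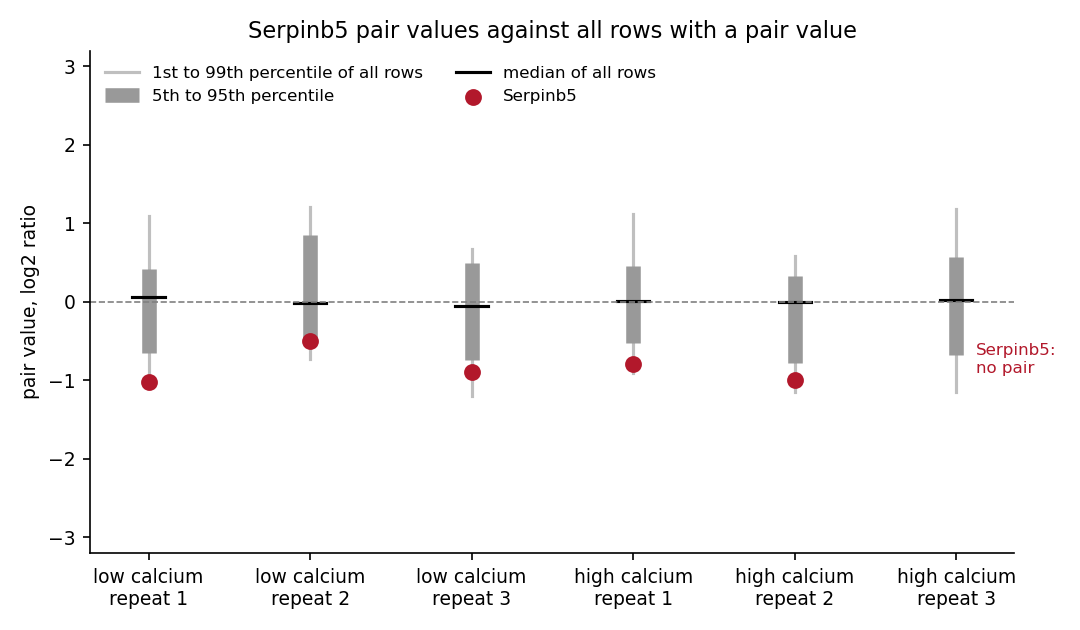
Pair values as log2 ratios (y axis) by calcium level and repeat (x axis). Grey bars span the 5th to 95th and thin lines the 1st to 99th percentile of all rows with a pair value, black ticks their median, and red points Serpinb5. Serpinb5 lies below the median in all 5 pairs, with 1.06% to 5.12% of rows lower still.

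The effect did not differ detectably between calcium levels. The log2 ratio in high minus low calcium was -0.08 ± 0.25 (SE), with a 95% confidence interval of -0.62 to 0.45 (limma adjusted p = 1.00). The interval allows either level to have the larger effect, and the test called 0 of 4209 rows (0%) by limma, with 107 (2.54%) at an unadjusted p under 0.05. Low and high calcium RNA never met on 1 array, and how calcium itself moved maspin was not measured.

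Forward and reversed arrays did not agree equally well in all repeats, and this separated along the submitters' experiment numbers. The lower numbers belong to high calcium repeats 1 and 2 with low calcium repeat 1, which were well filled, with 7869 to 9096 measured probes per array. In these, Serpinb5 read -0.86 ± 0.19 on forward and -1.01 ± 0.43 on reversed arrays (SD, n = 3 each), all 6 below 0. The sparse set was made up of low calcium repeats 2 and 3 with high calcium repeat 3, at 3366 to 6974 measured probes. There Serpinb5 read 0.66 ± 0.76 on forward arrays (SD, n = 3) and -1.64 ± 0.98 on reversed arrays (SD, n = 2), so the orientations had opposite signs on average. The pair values were -0.93 ± 0.13 (SD, n = 3) in the well-filled set and -0.69 ± 0.28 (SD, n = 2) in the sparse set. With the well-filled set alone, the log2 ratio was -1.02 in low calcium (1 pair, taken to vary like the others) and -0.89 in high calcium. The high calcium limma adjusted p was 0.000535, in a fit that called 684 of 8442 rows there. With all pairs 101 of 7263 were called in high calcium. With the array set as a block it was -0.86 in low calcium (limma adjusted p = 0.0205) and -0.72 in high calcium (limma adjusted p = 0.289).

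The part of the signal that did not turn with the dyes is the mean of the forward and the deposited reversed value. It also equals the result if the deposited signs are kept. For Serpinb5 it was 0.19, 0.46 and 1.45 in low calcium repeats 1, 2 and 3, and -0.27 and 0.31 in high calcium repeats 1 and 2. The value of low calcium repeat 3 stood apart: only 23 of 2894 rows (0.795%) had a higher one there. Its mean was 0.70 ± 0.25 (SE, n = 3 pairs, limma adjusted p = 0.0844) in low calcium and 0.02 ± 0.31 (SE, n = 2 pairs, limma adjusted p = 0.979) in high calcium. With kept signs, Serpinb5 was called at neither level and had the opposite sign, while limma called 16.4% of rows in low calcium and 0% in high calcium. In low calcium this component was close in size to the turned value and spread more between pairs. In high calcium it was near 0.

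Taken by orientation, forward arrays alone gave -0.10 in low calcium (limma adjusted p = 0.899) and -0.09 in high calcium (limma adjusted p = 0.917). Reversed arrays alone gave -1.50 (limma adjusted p = 0.0328) and -0.91 (limma adjusted p = 0.410). Arrays set to the same spread gave -0.88 and -1.27, and neither passed. A trended and robust variance left the ratios as they were, with limma adjusted p of 0.480 and 0.497.

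**Figure D3:**
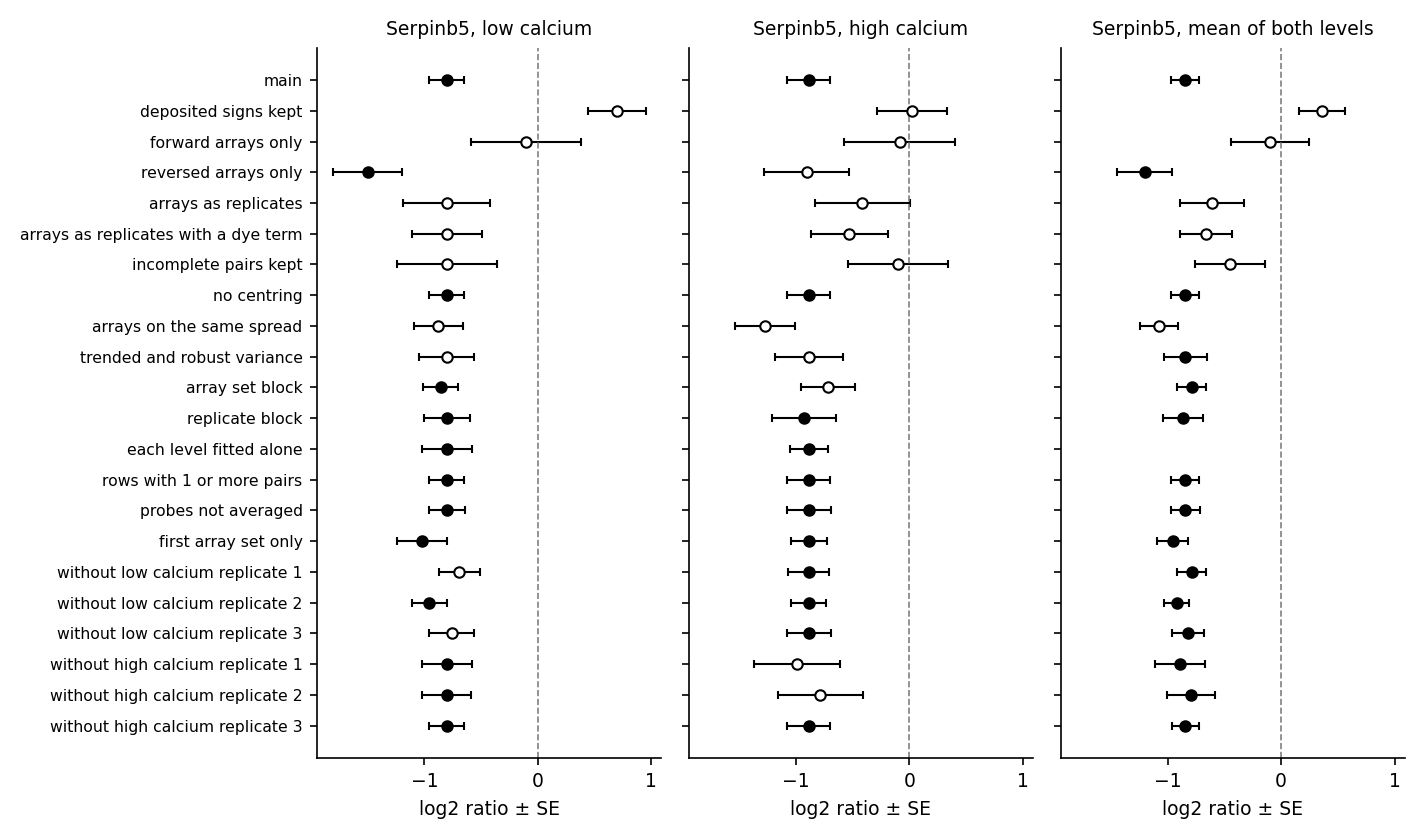
Log2 ratio of Serpinb5 with its standard error (x axis) under each way of processing (y axis), in low calcium, high calcium and their mean. Filled points have a limma adjusted p under 0.05 and open points do not. Forward arrays alone lie close to 0 in all 3 panels (-0.10, -0.09 and -0.10), and kept signs lie above 0 (0.70, 0.02 and 0.36).

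Among the clade B serpins, 5 of the 17 listed were on the arrays, and maspin was 1 of 2 that fell at each level (0.387% of all rows tested fell in low and 0.84% in high calcium). Serpinb2, which encodes the plasminogen activator inhibitor PAI-2, read -1.82, -1.10 and -1.31 in the low calcium pairs and -1.82 and -1.32 in high calcium repeats 1 and 2. All 5 of its pair values were lower than those of Serpinb5 in the same pairs. Its log2 ratio was -1.41 in low calcium (limma adjusted p = 0.00376) and -1.57 in high calcium (limma adjusted p = 0.00667), and -1.32 without high calcium repeat 1 (limma adjusted p = 0.0645). Serpinb8, a furin inhibitor in the same run of genes, did not pass at 0.17 in low and -0.44 in high calcium. Serpinb1a, an inhibitor of neutrophil proteases, was at 0.15 at both levels, and Serpinb9, the granzyme B inhibitor, at 0.26 in high calcium. With Serpinb5 itself counted, clade B medians were -0.33 (4 tested) and -0.44 (5 tested) in low and high calcium. Over all rows tested the medians were 0.02 and 0.01. Apart from Serpinb5, only Serpinb2 and, in high calcium, Serpinb8 lay below 0. Of 9 serpins of other clades on the arrays, 0 of 6 tested in low calcium and 0 of 9 in high calcium passed limma, with 1 at each level at an unadjusted p under 0.05. These were Serpina1b, an antitrypsin gene (0.64 in low calcium), and Serping1, the C1 inhibitor (-1.08 in high calcium). Serping1 rested on repeat 3, at -3.23 against -0.29 and 0.26. The arrays of that repeat had opposite signs, at -7.36 on the forward and 0.91 on the reversed array after turning. Serping1 passed without repeat 1 (-1.48) or repeat 2 (-1.76), in fits with 1 variance shared by all rows. Medians of the serpins of other clades were 0.29 and 0.12.

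Of the p53 family members named in the series title, neither Trp73 nor Trp63 was called when all pairs were used. In the well-filled set alone, Trp63 was lower at both levels and called in high calcium, as given above. Trp73, the p73 gene, read 0.17, 0.15 and 0.13 in low calcium repeats 1 to 3 and 0.25 and 0.27 in high calcium repeats 1 and 2. All 5 pair values lay above 0, and the share of all rows for which this held is not given here. Limma called neither level (0.15, adjusted p = 0.825, and 0.26, adjusted p = 0.667). Single arrays did not all read above 0: Trp73 was at -0.115 on the forward array of low calcium repeat 3. On the forward array of high calcium repeat 3, which had no pair for Trp73, it was at -0.76. Trp63 read -0.78 and 0.45 in low calcium repeats 1 and 2 and -0.59 and -0.51 in high calcium repeats 1 and 2. It was at -0.16 in low calcium (limma adjusted p = 0.919) and at -0.55 in high calcium (limma adjusted p = 0.446). Whether this probe detects the transgene was not tested. Trp53 was not analysed here.

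**Figure D4:**
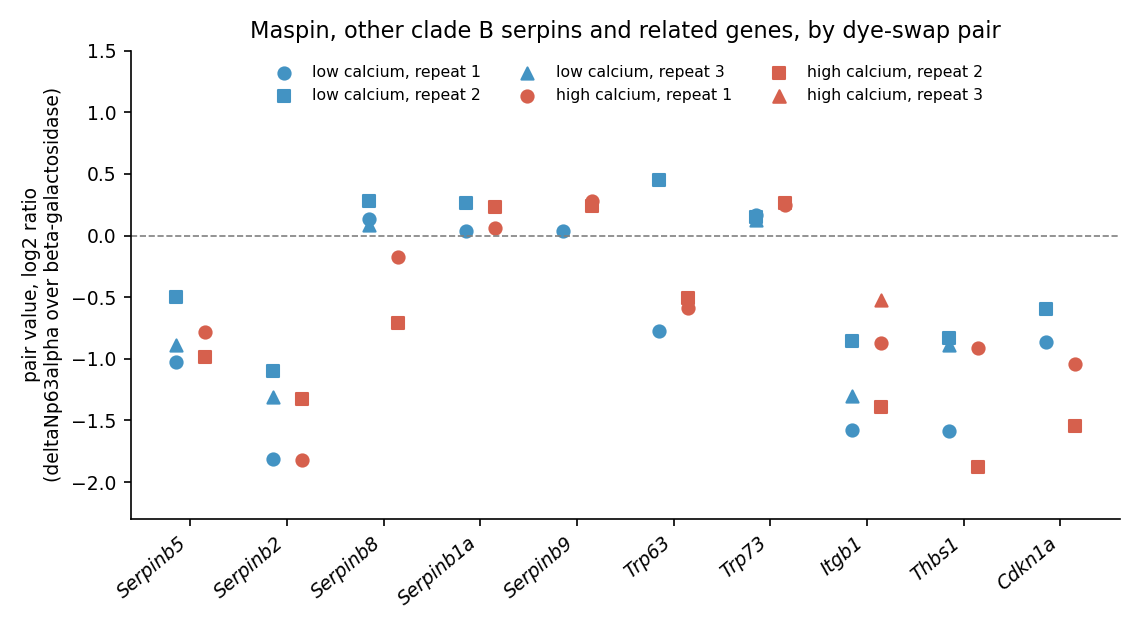
Pair values as log2 ratios (y axis) of Serpinb5, the other clade B serpins, Trp63, Trp73 and 3 genes that fell (x axis), in blue for low and red for high calcium, with a marker shape per repeat. Serpinb5 (-1.02 to -0.50) lies above Serpinb2 (-1.82 to -1.10) and below Trp73 (0.13 to 0.27).

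Among 20 p53 family members and targets on the arrays, 2 of 15 tested fell in low calcium, maspin and Thbs1, and 3 of 20 in high calcium, with Cdkn1a added, against 0.387% and 0.84% of all rows. None passed in the other direction by limma. Thbs1 encodes thrombospondin, an inhibitor of blood vessel growth, and was at -1.10 in low calcium (limma adjusted p = 0.0450) and -1.39 in high calcium (limma adjusted p = 0.0214). It did not pass in low calcium without any 1 of the low calcium repeats (limma adjusted p from 0.0520 to 0.205) or in high calcium without repeat 2 (limma adjusted p = 0.475). Cdkn1a, which encodes the cell cycle brake p21, was at -0.73 in low calcium and fell in high calcium (-1.29, limma adjusted p = 0.0102, or 0.262 without repeat 2). On the forward array of high calcium repeat 3 maspin, Thbs1 and Cdkn1a were positive, at 1.47, 1.05 and 1.17, with no value on the reversed array. Such a gap was common, as only 3271 of 8875 rows had a value on that reversed array. Uncalled members of the list with the same gap read above or below 0 on the forward array. With maspin itself counted, the list medians were -0.25 and -0.44, and 13 of 15 and 15 of 20 members tested were below 0.

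Genes with products reported to bind maspin numbered 10 on the arrays, of which Itgb1 alone fell (1 of 7 tested in low and 1 of 8 in high calcium, against 0.387% and 0.84% of all rows). Itgb1, the beta-1 integrin subunit that anchors basal keratinocytes, was at -1.25 in low calcium (limma adjusted p = 0.0130) and -0.93 in high calcium (limma adjusted p = 0.0314). Those calls were lost without low calcium repeat 1 (-1.08, limma adjusted p = 0.0674) and without high calcium repeat 2 (-0.69, limma adjusted p = 0.275). Gstp1, a glutathione transferase, did not pass (-0.49 and -0.35). Medians over the 7 and 8 tested were 0.05 and -0.09. Of reported regulators of maspin, 0 of 11 tested in low and 0 of 10 in high calcium passed limma, with medians of 0.04 and 0.01. At an unadjusted limma p under 0.05 there were 0 in low calcium and 1 in high calcium, Myc, a growth-promoting transcription factor (-0.47, limma adjusted p = 0.230). In the plasminogen activation system, which maspin has been reported to touch through urokinase and tissue plasminogen activator, 1 of 6 tested fell in low calcium (Serpinb2) and 2 of 9 in high calcium (Serpinb2 and S100a10), against 0.387% and 0.84% of all rows. S100a10, which binds plasminogen at the cell surface with annexin A2, was at -1.11 in high calcium (limma adjusted p = 0.0219, or 0.141 and 0.257 without repeats 1 and 2). Medians were -0.07 and -0.23.

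Keratinocyte genes gave the setting in which maspin fell. Of basal keratinocyte genes, 2 of 9 tested fell in low and 2 of 14 in high calcium, both times Itgb1 and the proteoglycan gene Sdc1, against 0.387% and 0.84% of all rows, with medians of -0.24 and -0.29. In low calcium 8 of 9 members tested were below 0, and in high calcium 8 of 14. Above 0 in high calcium, and not called, were Krt5 (0.11), Col17a1 (0.22), Egfr (0.24), Lamb3 (0.13), Itga6 (0.06) and Tfap2c (0.49). Sdc1 (-1.22 and -1.04) did not pass without low calcium repeat 1 or 2 (limma adjusted p = 0.0584 and 0.127), nor without high calcium repeat 1 or 2 (limma adjusted p = 0.107 and 0.610). Of terminal differentiation genes, Sprr1a, a cornified envelope precursor, was the 1 of 6 tested that fell in low calcium (-2.15, limma adjusted p = 0.000419). In high calcium 6 of 8 fell: Sprr1a (-1.63), the suprabasal keratin Krt10 (-1.57), the shedding proteases Klk7 (-1.73) and Klk5 (-1.69), the granular layer protein Flg (-1.93) and Crct1 (-1.43), with limma adjusted p from 0.00821 to 0.0351. Flg did not pass without high calcium repeat 3 (limma adjusted p = 0.0993) or low calcium repeat 2 (limma adjusted p = 0.0512), nor did Crct1 without high calcium repeat 2 (limma adjusted p = 0.124). In low calcium, Flg (-1.51) passed without any 1 of the high calcium repeats, and Klk5 (-0.94) without high calcium repeat 1 or 2 or, at -1.28, low calcium repeat 2. The fits without high calcium repeat 1 or 2 used 1 variance shared by all rows. Over all rows 0.387% and 0.84% fell. Medians of this list were -0.47 and -1.60. Markers of other skin cells did not pass limma at either level: 0 of 2 and 0 of 3 tested melanocyte, 0 of 4 and 0 of 6 fibroblast, 0 of 6 and 0 of 6 endothelial and 0 of 5 and 0 of 6 immune markers in low and high calcium. At an unadjusted limma p under 0.05 there were 2, the endothelial markers Eng and Kdr in low calcium (-0.55 and 0.38, limma adjusted p = 0.314 and 0.393). The list medians lay between -0.04 and 0.20, and the part of other cells in the maspin result was not tested. Ratios cannot show whether the cells express a marker, so the labelled cell type was not checked by level, and fewer cells of a type and less RNA per cell cannot be told apart.

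None of the genes named here as having fallen at a single calcium level passed there under any of 3 alternatives: equal spread of all arrays, a trended and robust variance, or incomplete pairs kept.

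The genes whose arrays looked most like those of maspin were sought among 1616 rows with a value on the same 11 arrays. Likeness was the root mean square difference of the centred array values, which does not depend on how the ratios are turned. The 8 nearest named genes were Dstn (difference 0.38), which encodes the actin-depolymerising protein destrin, the actin gene Acta1 (0.41), the predicted gene Gm6180 (0.43), Memo1, a cell motility gene (0.48), Cd244a, a receptor of natural killer cells (0.48), Yap1, the coactivator of the Hippo pathway (0.48), Tnc, the matrix protein tenascin C (0.48), and Ryk, a Wnt receptor (0.51). The median difference over all 1616 rows was 1.22, and a row at 0 on every array would lie at 1.15. After turning, their Pearson correlations with Serpinb5 over the 11 arrays ran from 0.86 to 0.98, which their choice on these arrays fixes in part. Of the 1616 rows, 125 correlated above 0.8. The arrays of a pair share their RNAs, so these points are not independent.

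The values of the 8 genes on single arrays are a description, since these arrays chose them. On the forward array of high calcium repeat 3 they read 0.70 (Ryk) to 1.64 (Gm6180), against 1.47 for Serpinb5. On the reversed array of low calcium repeat 3 they read -3.11 (Acta1) to -1.24 (Tnc), against -2.34. On the forward array of low calcium repeat 3, Ryk (-0.23) was below 0 while Serpinb5 (0.56) and the other 7 were above it. On the forward array of low calcium repeat 1 they ran from -1.23 (Cd244a) to 0.03 (Memo1), against -0.83 for Serpinb5. Only Ryk in low calcium passed the limma test (-0.86, adjusted p = 0.0393, or 0.126 and 0.112 without low calcium repeats 1 and 3), and none of the 8 passed in high calcium, with limma adjusted p from 0.117 (Tnc) to 0.788 (Yap1). Without high calcium repeat 3, for which Serpinb5 has no pair, Dstn (-1.08), Acta1 (-1.16) and Tnc (-0.89) passed in high calcium, with limma adjusted p from 0.0275 to 0.0396. In low calcium, Acta1 (-0.94) passed without any 1 of the high calcium repeats, Cd244a (-0.87) without repeat 1 or 2 of high calcium, and Dstn (-0.75) without repeat 2 of high calcium. Again, the fits without repeat 1 or 2 of high calcium used 1 variance shared by all rows. The annotation names the cDNA of a probe, and cross-hybridisation of near-identical genes such as the actins was not tested.

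**Figure D5:**
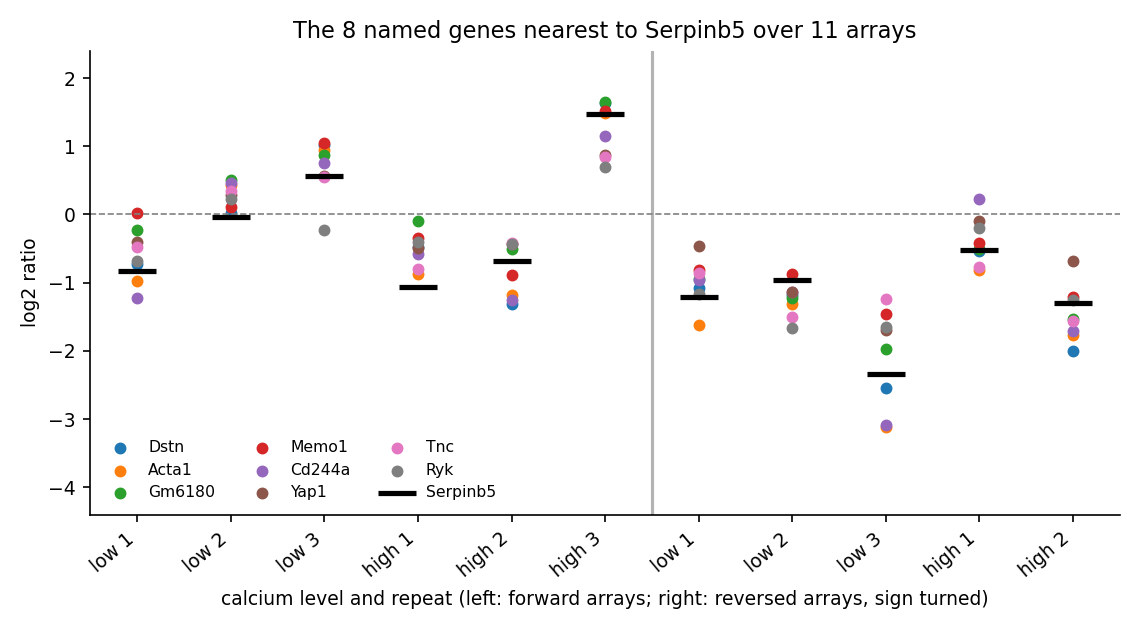
Log2 ratios (y axis) on the 11 arrays with a Serpinb5 value (x axis, forward arrays left of the line, reversed arrays after turning right of it). Black bars are Serpinb5 and coloured points the 8 nearest named genes. On the forward array of high calcium repeat 3 all 8 lie above 0, between 0.70 and 1.64.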

How the data were processed

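The authors deposited, per array, the log2 ratio of the 2 dyes of each of 9558 probes, with array medians between -0.0005 and 0.0005. The log base was taken from the range of the values. How spots were scanned, corrected, normalised and filtered is not given in the sources used here. Total RNA was labelled with a Genisphere kit, per the labels' protocols. Probes were named from the platform annotation (7457 with 1 symbol, 481 with several, 1620 unlisted), with 7368 symbols updated by gene ID. Probes of a symbol were averaged, which left 8875 rows, and arrays were centred on their medians.

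Pair values were (forward - reversed)/2, missing where 1 array had no value. One limma fit (version 3.58.1, in R 4.3.3) held the 3 pairs of each level, with 9.555 prior degrees of freedom. Rows with at least 2 pairs at a level were tested, and a Benjamini-Hochberg adjusted p under 0.05 was a call. The number of arrays limits the precision. The fit was run on simulated pairs with independent errors drawn from its own variance estimate. These held no dye-shared signal and no differences between arrays, so how the fit behaves under those was not tested. The gene, the lists and the rules were chosen with earlier results of these data known. Named genes were Serpinb5, the p53 family, clade B serpins, called list members, otherwise up to 2 of smallest p per list, and the 8 nearest genes. Alternatives were other orientations, array sets, replicate units, scalings, variance models, blocks and filters, and each pair left out.

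Deviations of low and high calcium pairs with the same repeat number correlated at -0.026, -0.108 and 0.204 over 1381 rows, so the numbers were not taken to pair the levels.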

Additional observations from a re-analysis of the deposited data

How the results depend on the processing

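The direction of Serpinb5 turned when the deposited signs were kept (0.70 in low calcium, 0.0186 in high calcium and 0.36 for their mean), and it stayed negative at both levels under the other alternatives run. It no longer passed at a level or in the mean with forward arrays only (-0.10, -0.0875 and -0.10), arrays as replicates (-0.80, -0.41 and -0.61), arrays as replicates with a dye term (-0.80, -0.53 and -0.67), incomplete pairs kept (-0.80, -0.10 and -0.45) and arrays on the same spread (-0.88, -1.27 and -1.08). Under a trended, robust variance both levels missed the threshold (-0.80 and -0.89), and with reversed arrays only (-0.91) or the array set as a block (-0.72) high calcium did. Without 1 repeat, values ran from -0.96 to -0.69 in low calcium, from -0.99 to -0.79 in high calcium, from -0.92 to -0.79 for the mean and from -0.195 to 0.0679 for high minus low. High minus low, never called, was -0.08 as reported, -0.68 with kept signs, -0.40 with the same spread, 0.0158 with forward arrays, 0.60 with reversed arrays, 0.39 with arrays as replicates, 0.27 with a dye term, 0.70 with incomplete pairs and 0.13 with the array set as a block or with the well-filled set alone. The cause of these changes was not tested.

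Rows called in low calcium, high calcium and their mean (19, 101 and 106) became 763, 0 and 1232 with kept signs, 33, 0 and 1464 with forward arrays, 330, 1 and 540 with reversed arrays, 1, 0 and 54 with arrays as replicates, 0, 0 and 10 with incomplete pairs, 0, 1 and 21 with the same spread, 0, 0 and 28 with a trended variance, 4, 14 and 37 with complete rows only, and 334, 684 and 897 with the well-filled set alone. With a dye term 4 and 24 were called at the levels, with the array set as a block 46 and 35, and with each level alone 49 and 236. Rows with 1 or more pairs gave 51 in low calcium and 270 in the mean. Without 1 repeat the counts ran from 6 to 51, 33 to 151 and 39 to 127. The rows tested changed as well, so these counts are not shares of the same rows. They were 4646, 7263 and 4209 as reported, 1381 each with complete rows only, 7893, 8442 and 7779 with the well-filled set alone, and 8554, 8713 and 8456 with arrays as replicates. High minus low, with 0 called by limma and 107 at an unadjusted p under 0.05, had 1 with the array set as a block and with rows of 1 or more pairs, 2 with the well-filled set alone, and 0 to 1 without 1 repeat.

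Whether the labels' repeat numbers pair the levels is not settled, and they were not taken to do so. With the replicate block, Serpinb5 was -0.80 in low calcium, -0.93 in high calcium and -0.87 for the mean, all still called, and 45 rows were called in low calcium and 2 for high minus low. That fit, too, used 1 variance shared by all rows. Complete rows only gave no Serpinb5 value, since 1 pair is missing, and levels fitted alone give no mean or difference.

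With kept signs the ratios of other genes turned too, in low and high calcium: Serpinb2 to 0.72 and 0.29, Itgb1 to 0.86 and 0.49, Thbs1 to 0.86 and 0.14, Cdkn1a to 0.83 and 0.34, Sdc1 to 0.98 and 0.18 and Sprr1a to 0.91 and 0.32. In high calcium S100a10 turned to 0.39, Flg to 0.29, Klk5 to 0.23, Klk7 to 0.19 and Crct1 to 0.34, and in low calcium Gm6180 to 0.88 and Ryk to 0.64. Missing values on the sparse arrays limit what could be tested.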
